A study of Mus musculus with 6 samples.

Results

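Hyaluronan (HA) is a long sugar polymer of the extracellular matrix, and 10 genes that make it, cut it, bind it on cells or organise it in the matrix were read from primary osteosarcomas of mice with and without *Cd44*. They were chosen by name from the 39179 genes in the deposited table of raw read counts. The chosen genes are the synthases *Has1*, *Has2* and *Has3*, the hyaluronidases *Hyal1* and *Hyal2*, the receptors *Cd44*, *Hmmr* and *Lyve1*, and the binding proteins *Tnfaip6* and *Vcan*. Each symbol matched 1 Ensembl gene. The study compared tumors of 3 *Cd44*+/+ mice, namely No244, No316 and No368, with those of 3 *Cd44*-/- mice, which are No203, No279 and No364, with 1 RNA library per tumor. Values are listed below in this order of mice. The labels give the genotypes as CD44+/+; Nf2Δ2/+ and CD44-/-; Nf2Δ2/+ and the strain of all mice as C57BL/6 x 129/Sv x FVB. Every tumor therefore carried the *Nf2* allele, the controls included, and the age of the mice is not given in the sources used here. By the sample labels and the study's methods the RNA came from tumor tissue, although the extraction note in the labels speaks of cell lines. In tissue, fewer cells of a type and less RNA per cell cannot be told apart in any value below. Mice are separate animals by their labels, although the counts of No316 and No368 were so nearly proportional that they were counted as 1 sample in each mean ± SD.

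HA is spun out through the plasma membrane by the synthases, which join UDP-glucuronic acid and UDP-N-acetylglucosamine. Hyal2, at the cell surface, cuts long chains into fragments, and Hyal1 degrades these further in the lysosome. CD44 is the main HA receptor of most cells, and in bone tumors it is studied for adhesion, invasion and drug resistance. Its ectodomain can be shed and its intracellular domain (CD44ICD) released, after which that domain is reported to act at the DNA elements CIRE and TRE.

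Since these elements are spelled out for CD44ICD, the 250 bases before the RefSeq start of each gene (build GRCm38.p6) were searched on both strands. Promoters were given for 7 of the 10 genes (*Cd44*, *Has1*, *Hmmr*, *Hyal1*, *Hyal2*, *Tnfaip6* and *Vcan*). The letters of CIRE (CCTGCG, or CGCAGG on the other strand) were found in 1 of these 7, *Vcan*, 32 bases before the start. They occur in 14.1% of the 32851 mouse promoters of that length. The letters of TRE (TGACTCA or TGAGTCA) were found in 1 of the 7, *Tnfaip6*, 142 bases before the start, and occur in 4.5% of all promoters. The matches lie in different promoters and so do not overlap. A match describes the sequence and is not a binding site. The RefSeq start of *Tnfaip6* falls inside the GENCODE coordinates of the gene given below. Part of its 250 bases therefore does too. The promoters with a match, and that of *Cd44* for reference, are shown 5′ to 3′ on the strand of the gene with the motif in capitals. They lie at chr2:52037863-52038112 (*Tnfaip6*, plus strand), chr13:89742513-89742762 (*Vcan*, minus strand) and chr2:102901666-102901915 (*Cd44*, minus strand, with neither motif).
Tnfaip6: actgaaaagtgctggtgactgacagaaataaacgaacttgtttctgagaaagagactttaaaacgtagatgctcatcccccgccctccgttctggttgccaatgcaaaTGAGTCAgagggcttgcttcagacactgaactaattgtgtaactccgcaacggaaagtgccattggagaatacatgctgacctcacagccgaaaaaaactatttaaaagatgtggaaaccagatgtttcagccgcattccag
Vcan: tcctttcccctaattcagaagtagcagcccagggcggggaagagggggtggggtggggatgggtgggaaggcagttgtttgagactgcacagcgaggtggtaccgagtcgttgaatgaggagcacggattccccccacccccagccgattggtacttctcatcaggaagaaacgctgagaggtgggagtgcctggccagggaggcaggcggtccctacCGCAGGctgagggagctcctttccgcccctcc
Cd44: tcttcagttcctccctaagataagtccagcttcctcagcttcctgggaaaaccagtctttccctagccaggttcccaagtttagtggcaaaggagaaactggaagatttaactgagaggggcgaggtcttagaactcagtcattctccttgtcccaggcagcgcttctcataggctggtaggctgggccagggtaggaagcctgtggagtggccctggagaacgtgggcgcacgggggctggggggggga

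The libraries held between 18076388 and 26954142 counts, and levels are given as counts per 1000000 counts of the TMM-scaled library (CPM). A count of 3, taken as the smallest detectable amount, corresponded to between 0.0990 and 0.252 CPM. Some libraries stood apart and bear on every genotype difference. In No244 mitochondrial genes took 55.15% of the counts (5.94% to 12.53% in the others) and the 6 skeletal muscle markers summed to 18170 CPM, against 14.08 to 641.8 elsewhere. No364 carried 126100 CPM of the 11 hepatocyte markers found, where the other tumors had 45.89 to 160.5. Defining osteoblast markers were near 0 in No279 and No364, with 3.96 and 0.314 CPM of *Sp7* (192 or more in the other 4 tumors) and 3.27 and 2.25 CPM of *Ibsp* (640 or more). *Alpl* (7.16 and 19.6 CPM, 481 or more elsewhere) and *Dmp1* (0.363 and 0.523 CPM, 146.6 or more elsewhere) were also low in these tumors. Other osteoblast genes were present in No279, with 11990 CPM of *Col1a1*, 68.3 of *Runx2* and 1444 of *Spp1*. No364 had 2233 CPM of *Spp1*, but only 5.76 of *Runx2* (68.3 or more elsewhere) and 764.9 of *Col1a1* (8482 or more elsewhere). The Y-linked *Ddx3y* had 571 and 429 counts in No279 and No364 and at most 1 in the others, and sex, like age, is not named in the labels. The X-linked *Xist* had 22 and 19 counts in No279 and No364 and 14775 to 28636 in the others. Y-linked *Eif2s3y* had 483 and 572 counts in No279 and No364, 39 in No244 and 0 in the rest. These features were not spread evenly over the genotypes, and their part in the results was not tested beyond refits without single libraries or without both No244 and No364, without mitochondrial genes, or with a hepatocyte marker score as a covariate.

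**Figure D1:**
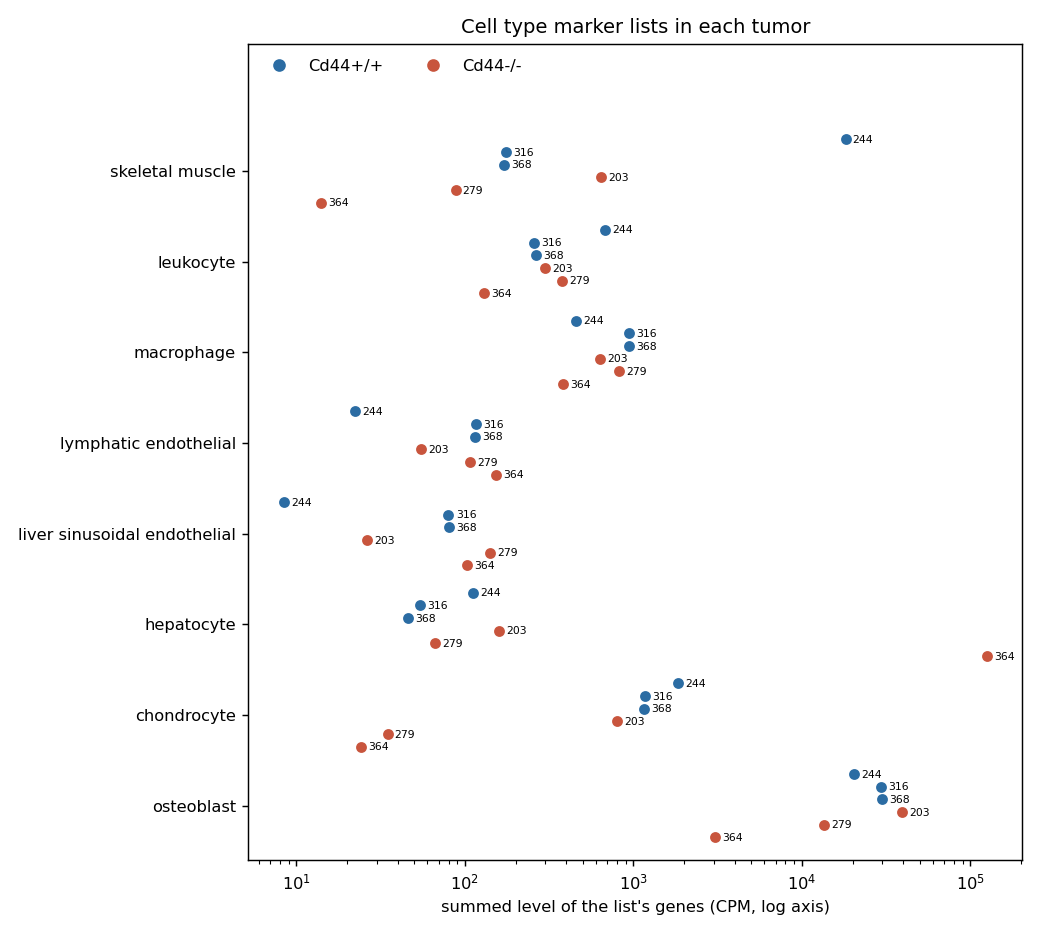
Summed CPM of each marker list (log axis, rows are cell types) in the 3 *Cd44*+/+ (blue) and 3 *Cd44*-/- (red) tumors, labelled by mouse number. The hepatocyte sum of No364 (126100 CPM) and the muscle sum of No244 (18170 CPM) lie far to the right of the other tumors.

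*Cd44* itself, the targeted gene (ENSMUSG00000005087, chr2:102811141-102901665, minus strand, GRCm38), reached 137.3, 243.6 and 240.3 CPM in the *Cd44*+/+ tumors. Those of *Cd44*-/- mice had 19.2, 15.7 and 61.8 CPM, or 485, 477 and 1180 counts. All 3 *Cd44*-/- tumors were below all 3 *Cd44*+/+ tumors, and none was at 0. Means were 189.6 ± 74.0 (SD, n = 2) and 32.2 ± 25.6 CPM (SD, n = 3), so 17.0% of the *Cd44*+/+ level was still counted. *Cd44* had a log2 fold change of -2.68 (SE 0.65) with an adjusted p = 0.452 in the quasi-likelihood test of edgeR and an adjusted p = 0.0145 in the Wald test of DESeq2. The DESeq2 call was lost without No316, without No368 or with both summed as 1 sample. The deleted exons are not given in the sources used here, and counts per gene do not show which exons the remaining reads came from. The largest remainder was in No364, the tumor with the hepatocyte markers, and without that library the log2 fold change was -3.56.

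Across the 10 genes, *Cd44* was thus the one lower in every *Cd44*-/- tumor. *Has2*, *Hmmr* and *Lyve1* were higher in every *Cd44*-/- tumor than in every *Cd44*+/+ tumor, and the other 6 overlapped between genotypes. Over all 16839 genes tested, 9.49% were higher and 9.57% lower in every *Cd44*-/- library. No member passed an adjusted p of 0.05 in edgeR, where 0% of all genes did. DESeq2 called 1 member (*Cd44*) and gave no adjusted p to *Has2* and *Vcan*, beside 2.33% of 17952 genes called. At an unadjusted edgeR p under 0.05 there were 2 members, *Cd44* and *Lyve1*, beside 10.7% of all genes tested (1810 genes, but 761 with No316 and No368 summed, 763 without No316, 784 without No368 and 3085 without No203). The fitted log2 fold change was above 0 for 8 members and for 55.1% of all genes tested, with medians of 1.03 and 0.11. With library size alone in place of TMM, *Has2* and *Hmmr* overlapped, *Hyal1* and *Hyal2* no longer did, and *Lyve1* and *Cd44* stayed apart in the same directions. The share of higher genes among all that did not overlap was 63.5% with that scaling and 49.8% with TMM.

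**Figure D2:**
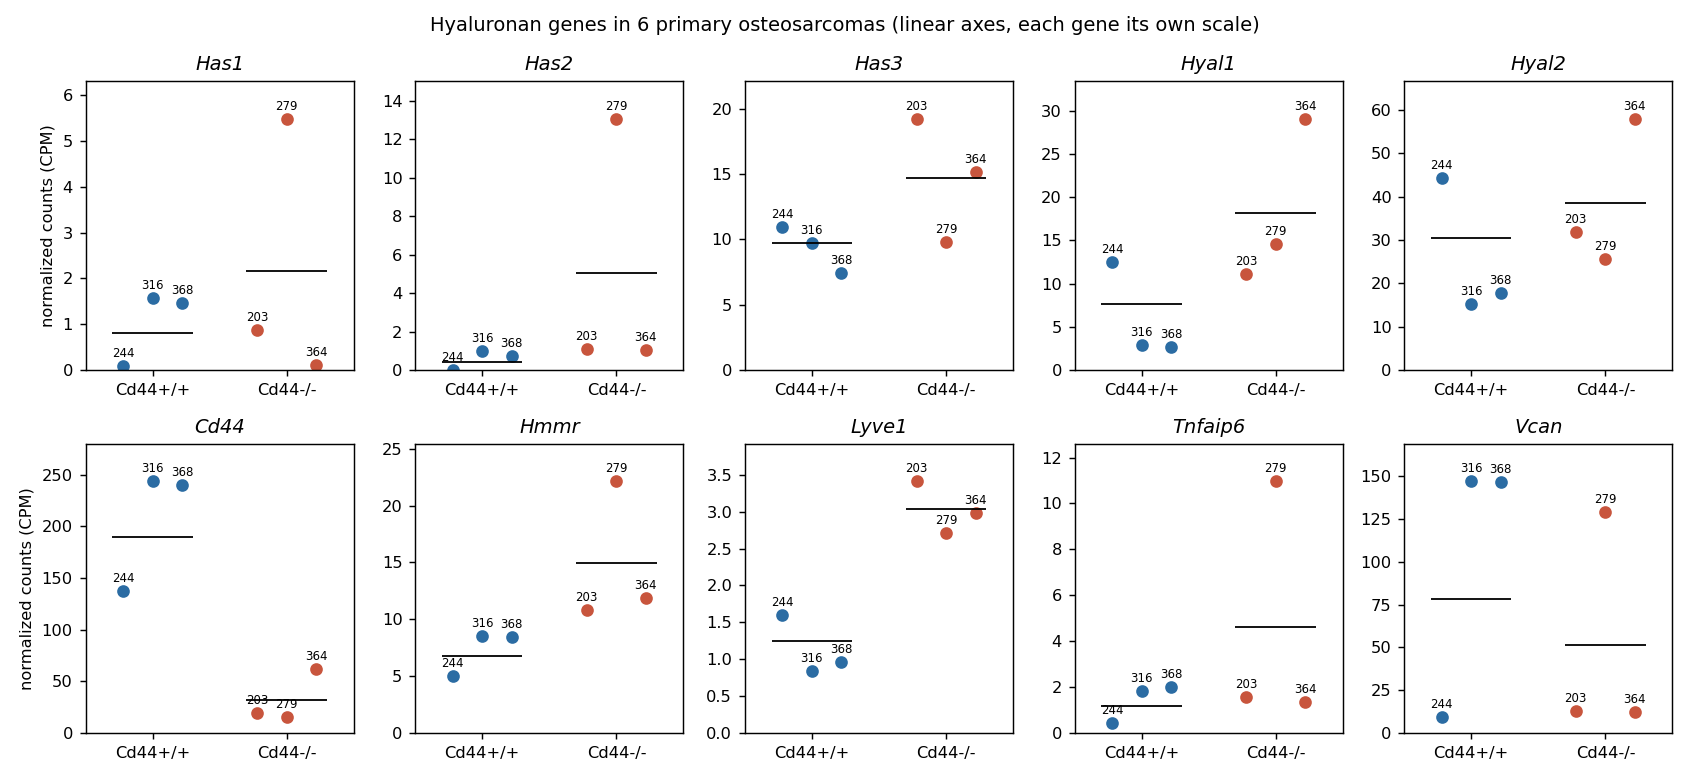
Normalized counts (CPM, linear axes, each gene on its own scale) of the 10 hyaluronan genes in each tumor, labelled by mouse number, with the genotype mean as a bar (No316 and No368 averaged first). *Cd44* is lower, and *Has2*, *Hmmr* and *Lyve1* are higher, in every *Cd44*-/- tumor, and No279 is the highest tumor for *Has1*, *Has2*, *Hmmr* and *Tnfaip6*.

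Levels of different genes were compared per kilobase of exon (CPM per kb). By this scale *Cd44* was the highest of the 10 genes in all 3 *Cd44*+/+ tumors, at 20.3, 36.0 and 35.5 CPM per kb. In the *Cd44*-/- tumors the highest member was *Hyal2* in No203 (9.69 CPM per kb) and No364 (17.6) and *Vcan* in No279 (8.92). By genotype means (n = 2, with No316 and No368 averaged first), *Cd44* (28.0) led the *Cd44*+/+ tumors, followed by *Hyal2* (9.25), *Vcan* (5.40), *Hyal1* (2.03), *Has3* (1.53) and *Hmmr* (1.24), and *Tnfaip6* (0.687), *Lyve1* (0.428), *Has1* (0.177) and *Has2* (0.102) were below. In the *Cd44*-/- tumors (n = 3) *Hyal2* (11.7) led, with *Hyal1* (4.82), *Cd44* (4.76) and *Vcan* (3.55) next, then *Hmmr* (2.75), *Tnfaip6* (2.70), *Has3* (2.31), *Has2* (1.20), *Lyve1* (1.04) and *Has1* (0.476). In each genotype the leading gene stayed above the range of the next one, and every later pair of neighbours overlapped in range.

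*Has3*, the synthase gene with the highest level in 5 of the 6 tumors, lies at chr8:106870242-106884566. It had 10.9, 9.70 and 7.43 CPM in the *Cd44*+/+ tumors and 19.2, 9.77 and 15.2 CPM in the *Cd44*-/- tumors. The genotypes overlapped because No279 lay among the *Cd44*+/+ tumors. Means were 9.74 ± 1.67 (SD, n = 2) and 14.7 ± 4.75 CPM (SD, n = 3), and the log2 fold change was 0.66 (SE 0.43, adjusted p = 0.570 by edgeR). *Has3* shares 5.5% of its exon bases with *Chtf8* on the opposite strand, and the strand setting of the counting is not stated.

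*Has2* (chr15:56665627-56694539), the synthase that the embryo needs, was scarce in all tumors but 1. It had 0, 28 and 18 counts in the *Cd44*+/+ tumors, or 0, 0.973 and 0.756 CPM. In the *Cd44*-/- tumors there were 28, 396 and 20 counts, or 1.11, 13.1 and 1.05 CPM. No279 was far above the other 5 tumors, and No203 and No364 barely passed the *Cd44*+/+ tumors No316 and No368. The 0 counts of No244 allow up to 0.252 CPM. The ratio of the means was 11.8 (5.08 ± 6.93, n = 3, against 0.432 ± 0.611 CPM, n = 2, both SD), with an SD above the mean in each genotype. Its log2 fold change of 3.08 (SE 1.51, adjusted p = 0.491 by edgeR) was 0.85 without No279. *Has2* shares 4.3% of its exon bases with the antisense gene *Has2os*.

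*Has1* (chr17:17843323-17855205) was also scarce, above *Has2* in each *Cd44*+/+ tumor and below it in each *Cd44*-/- tumor per kilobase, with 0.0840, 1.56 and 1.47 CPM in the *Cd44*+/+ tumors and 0.872, 5.48 and 0.105 CPM in *Cd44*-/- tumors. No244 had 1 count and No364 had 2, which is under the detectable amount in each genotype. Its log2 fold change of 1.03 (SE 1.42, adjusted p = 0.794 by edgeR) turned to -1.09 without No279.

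The makeup of the synthase counts set No279 apart. *Has3* took 34.5% of 858 synthase counts there (Wilson 95% interval 31.4% to 37.7%), and *Has2* took 46.2% (42.8% to 49.5%). In the other *Cd44*-/- tumors *Has3* took 90.7% (87.9% to 92.8%) in No203 and 92.9% (89.6% to 95.3%) in No364. In the *Cd44*+/+ tumors its share was 99.2% (95.8% to 99.9%) in No244, 79.3% (74.7% to 83.2%) in No316 and 77.0% (71.1% to 81.9%) in No368. The intervals cover counting error only, and genes of longer exon give more counts per molecule. Per kilobase, *Has2* in No279 (3.09 CPM per kb) also passed *Has3* in that tumor (1.53).

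**Figure D3:**
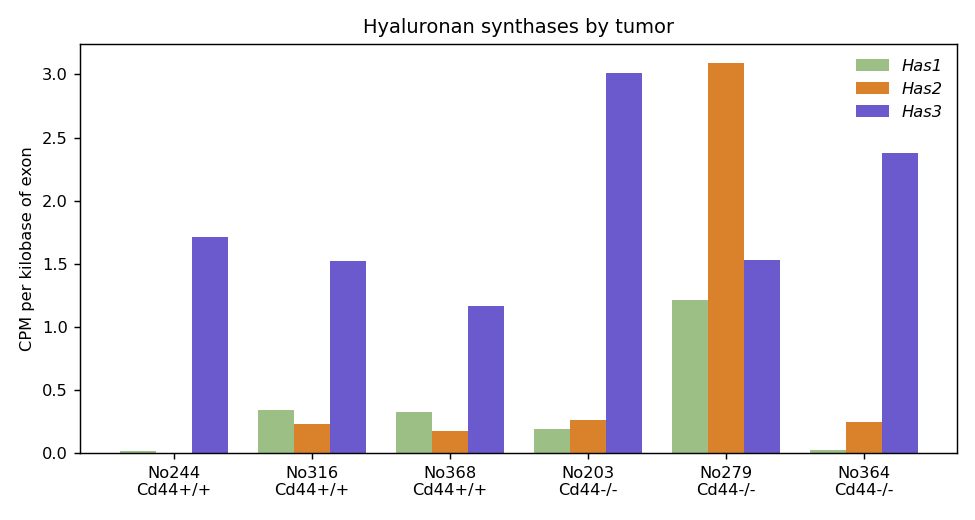
Level of each hyaluronan synthase (CPM per kilobase of exon, bars from 0) in the 6 tumors, with genotype under the mouse number. *Has3* is the tallest bar in 5 tumors, and *Has2* (3.09) is the tallest in No279.

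With TMM scaling the hyaluronidase levels overlapped between genotypes, whereas with library size alone both were higher in every *Cd44*-/- tumor. *Hyal2* (chr9:107567945-107572779) had 44.4, 15.2 and 17.9 CPM in the *Cd44*+/+ tumors and 31.9, 25.7 and 58.0 CPM in the *Cd44*-/- tumors. No244 lay above 2 of the *Cd44*-/- tumors. Means were 30.5 ± 19.7 (SD, n = 2) and 38.5 ± 17.1 CPM (SD, n = 3), and the log2 fold change was 0.58 (SE 0.55, adjusted p = 0.694 by edgeR). *Hyal1* (chr9:107576927-107581710) had 12.5, 2.95 and 2.73 CPM in the *Cd44*+/+ tumors and 11.1, 14.5 and 29.1 CPM in the *Cd44*-/- tumors. All *Cd44*-/- tumors were above the pair No316 and No368, while No244 lay between No203 and No279. For *Hyal1* the log2 fold change was 1.59 (SE 0.76, adjusted p = 0.485 by edgeR) and 2.67 without No244. Without that library DESeq2 called *Hyal1*, *Lyve1* and *Cd44*, beside 4.94% of 19026 genes called in that fit. *Hyal1* shares 1961 of its 3777 exon bases (51.9%) with *Naa80* and *Hyal3* on the same strand, so its counts are uncertain. Both hyaluronidases were highest in No364, and with the hepatocyte marker score as a covariate their log2 fold changes were 0.09 for *Hyal2* and 1.03 for *Hyal1*.

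*Lyve1* (chr7:110850607-110863239), a relative of CD44 known as the HA receptor of lymphatic vessels and liver sinusoids and found on some macrophages, was low in all tumors. It was counted 19, 24 and 23 times in the *Cd44*+/+ tumors and 86, 82 and 57 times in the *Cd44*-/- tumors. In CPM these were 1.60, 0.834 and 0.966 against 3.41, 2.71 and 2.98. The genotypes did not overlap, and the means of 1.25 ± 0.493 (SD, n = 2) and 3.03 ± 0.354 CPM (SD, n = 3) gave a ratio of 2.43. *Lyve1* had a log2 fold change of 1.43 (SE 0.55, unadjusted p = 0.0370, adjusted p = 0.452 by edgeR), and with each library left out in turn it stayed between 1.24 and 1.74. The adjusted p by DESeq2 was 0.141. With No316 and No368 summed as 1 sample the log2 fold change was 1.29, with an adjusted p = 0.818 by edgeR.

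Markers of the cells that carry *Lyve1* gave these values beside it. The 6 lymphatic markers summed to 22.44, 116.6 and 115.5 CPM in the *Cd44*+/+ tumors and 55.0, 108.0 and 152.3 CPM in the *Cd44*-/- tumors, with *Prox1* at 118.4 CPM in No364 and at most 0.840 elsewhere. Most of that sum was the single gene *Pdpn* in No316, No368 and No279 (94.4, 90.05 and 84.3 CPM). In No364, the tumor with the hepatocyte markers, most of it was *Prox1*. Other genes of the list were mixed there. *Flt4* (8.06 CPM, 13.4 to 30.7 elsewhere) and *Ccl21a* (0.0523 CPM, 0.357 to 3.57 elsewhere) were lowest in No364. *Reln* was highest in it (16.1 CPM, at most 4.24 elsewhere). Of the 6 liver sinusoidal markers found, *Clec4g* was at 0 in 4 tumors, with 5 counts in No203 and 305 in No364. *Oit3* and *Dnase1l3* of the same list were, like *Lyve1*, higher in every *Cd44*-/- tumor, with 1.43, 1.98 and 1.97 against 3.89, 7.03 and 6.44 CPM of *Oit3* and 0.924, 0.313 and 0.504 against 1.55, 3.17 and 10.6 CPM of *Dnase1l3*. The others of the list did not separate the genotypes: *Stab2* and *Fcgr2b* overlapped, and *Gata4* had 119 counts in No364 and at most 1 elsewhere. *Fcgr2b* had 4.45, 77.5 and 77.5 against 11.1, 130.1 and 46.7 CPM. That list summed to 8.403 to 80.19 CPM in *Cd44*+/+ and 26.25 to 141.1 CPM in *Cd44*-/- tumors, and most of the sum in No316, No368 and No279 was *Fcgr2b*. The 9 macrophage markers summed to 454.3 to 940.8 CPM and 380.9 to 824.2 CPM, with 5 of them above 0 and 4 below by the edgeR fit. *Lyve1* was higher in No203 and No279, where hepatocyte markers were at 160.5 and 66.49 CPM in sum, as well as in No364, and its log2 fold change without No364 was 1.45. The part of these cells in the *Lyve1* values was not tested.

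*Hmmr* (chr11:40701395-40733422) encodes RHAMM, which binds HA and also works at the mitotic spindle of dividing cells. Its levels were 5.04, 8.52 and 8.40 CPM in the *Cd44*+/+ tumors and 10.8, 22.1 and 11.8 CPM in *Cd44*-/- tumors. The genotypes did not overlap, and No279 stood above the other *Cd44*-/- tumors. Means were 6.75 ± 2.41 (SD, n = 2) and 14.9 ± 6.25 CPM (SD, n = 3), a ratio of 2.21. Its log2 fold change of 1.03 (SE 0.48, adjusted p = 0.480 by edgeR) was 0.63 without No279.

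The 12 mitosis genes set beside *Hmmr* summed to 218.1, 475.4 and 465.4 CPM in the *Cd44*+/+ tumors and 822.9, 605.7 and 233.3 CPM in *Cd44*-/- tumors. No364 thus had a mitosis sum below those of No316 and No368, while its *Hmmr* was above theirs. *Hmmr* amounted to between 1.79% and 2.31% of that sum in the *Cd44*+/+ tumors and 1.32%, 3.65% and 5.07% in the *Cd44*-/- tumors. None of the 12 was called by edgeR or by DESeq2, 1 had an unadjusted edgeR p under 0.05, 11 had a fitted fold change above 0, and the median log2 fold change was 0.55.

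Among the binding proteins, *Tnfaip6* (chr2:52038009-52056686) encodes the secreted TSG-6, which moves heavy chains of inter-alpha-inhibitor onto HA. It was counted 5, 53 and 48 times in the *Cd44*+/+ tumors and 39, 332 and 26 times in the *Cd44*-/- tumors, or 0.420, 1.84 and 2.02 CPM against 1.55, 10.96 and 1.36 CPM. Only No279 exceeded No316 and No368. A log2 fold change of 1.68 (SE 1.06, adjusted p = 0.560 by edgeR) was 0.01 without No279. The promoter of *Tnfaip6* is the one shown with the TRE letters.

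*Vcan* (chr13:89655312-89742509), the large proteoglycan versican that HA anchors in the matrix, fell into a high and a low set of tumors that did not follow genotype. It reached 147.0 and 146.9 CPM in the *Cd44*+/+ tumors No316 and No368 and 129.1 CPM in the *Cd44*-/- tumor No279. It had 9.16 CPM in the *Cd44*+/+ tumor No244 and 12.9 and 12.0 CPM in the *Cd44*-/- tumors No203 and No364. The SD exceeded the mean in both genotypes (78.1 ± 97.4, n = 2, and 51.3 ± 67.3 CPM, n = 3). The log2 fold change of -0.98 (SE 1.26, adjusted p = 0.778 by edgeR) was -3.02 without No279. Its promoter is the one shown with the CIRE letters.

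**Figure D4:**
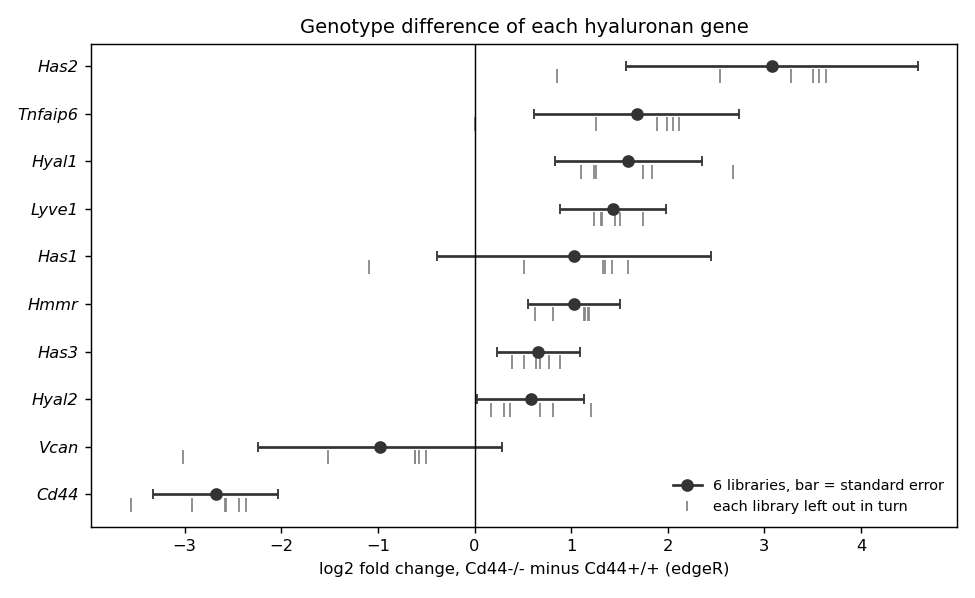
Fitted log2 fold change of each hyaluronan gene (*Cd44*-/- minus *Cd44*+/+, edgeR) with its standard error, and ticks for the same fit with each library left out in turn. *Cd44* runs from -3.56 to -2.36 and *Lyve1* from 1.24 to 1.74, whereas *Has1* has values on both sides of 0.

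The single tumor No279 was the highest for 4 members (*Has1*, *Has2*, *Hmmr* and *Tnfaip6*), No316, No203 and No364 for 2 each, and No244 for none. Profiles like those of the members were sought by the root mean square (RMS) distance of centred log2 CPM over the 6 libraries, as a description. Closest to *Has2* were *Adra2a* (RMS distance 0.296), *Ccl7* (0.307) and *Gm17509* (0.471). *Ccl7*, a chemokine for monocytes, had 40.8 CPM in No279 and at most 4.37 CPM elsewhere. Closest to *Vcan* were *Chn1os1* (0.132), *4930474H06Rik* (0.308) and *Trnp1* (0.309). *Hmmr* was nearest to the processed pseudogene *Gm13337* (0.094), *Hnrnpul1* (0.147) and *Sumo3* (0.151). *Lyve1* was nearest to *Ndufc2* (0.164), *Rpl18* (0.167) and *Idh3a* (0.176), of which *Rpl18* encodes a ribosomal protein and the others subunits of mitochondrial enzymes. *Cd44* was nearest to *Mfsd7a* (0.287), to 1 gene without a symbol (0.427) and to *Slc25a27* (0.485). *Mfsd7a* had 10.2, 21.5 and 20.7 CPM in the *Cd44*+/+ and 1.71, 2.15 and 5.18 CPM in the *Cd44*-/- tumors.

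Genes that supply the sugar precursors of HA gave no call. Of the 7, all tested, 0 passed edgeR or DESeq2 and 0 had an unadjusted edgeR p under 0.05, 6 had a fitted fold change above 0, and the median log2 fold change was 1.19 (0.39 without No364). *Ugdh*, which makes UDP-glucuronic acid, was higher in every *Cd44*-/- tumor, with 41.4, 133.2 and 131.8 CPM in *Cd44*+/+ and 215.4, 145.2 and 340.0 CPM in *Cd44*-/- tumors. *Ugdh* had a log2 fold change of 1.19 (SE 0.59, adjusted p = 0.492 by edgeR). *Ugp2*, which makes UDP-glucose, had 473 CPM in No364 and 49.7 to 78.8 CPM in the other tumors. *Uap1*, which makes UDP-N-acetylglucosamine, overlapped between genotypes at 44.7 to 79.7 CPM.

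The other genes of HA breakdown numbered 9, of which 6 were tested and none passed edgeR or DESeq2 (1 had an unadjusted edgeR p under 0.05, 3 above 0 and 3 below by the fit, median log2 fold change 0.22). *Cemip*, which is needed for HA breakdown in many cells, was lower in every *Cd44*-/- tumor, with 74.8, 54.7 and 55.0 CPM in *Cd44*+/+ and 17.5, 22.6 and 1.68 CPM in *Cd44*-/- tumors. *Cemip* had a log2 fold change of -2.14 (SE 0.84, adjusted p = 0.452 by edgeR), and it was called only by DESeq2 without No364. *Hexa*, which encodes a lysosomal enzyme, had 72.6 to 750 CPM with overlap, and *Gusb*, beta-glucuronidase, had 38.0 to 114.8 CPM with overlap.

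Among 22 other HA binders, 20 were tested, 0 passed edgeR (9 higher and 2 lower at an unadjusted p under 0.05), and DESeq2 called *Ptx3* and *Hapln1*. Of the tested binders, *Acan*, *Bcan*, *Hapln3*, *Itih1*, *Itih2*, *Itih3*, *Itih4*, *Ambp*, *Habp2* and *Susd5* got no adjusted p from DESeq2 by default and could not be called. With its filter on Cook's distance off, DESeq2 called *Acan*, *Ambp* and *Itih1* to *Itih4* of these. The edgeR fit was above 0 for 14 and below for 6, with a median log2 fold change of 2.06. Of the 9 higher genes 5 were *Itih1*, *Itih2*, *Itih3*, *Itih4* and *Ambp*, which were high in No364 alone. Without No364 the median was 0.18 over 20 genes, with 3 higher and 2 lower at an unadjusted p under 0.05. *Ptx3*, a pentraxin that TSG-6 and inter-alpha-inhibitor join in HA-rich matrix, had 2.02, 0.834 and 0.840 CPM in *Cd44*+/+ and 85.3, 62.3 and 5.23 CPM in *Cd44*-/- tumors. All *Cd44*-/- tumors were higher, with a log2 fold change of 5.39 (SE 1.11, adjusted p = 0.452 by edgeR and 8.6e-05 by DESeq2). *Ptx3* and *Hapln1* were called in all 9 DESeq2 fits that were run, which share libraries.

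*Hapln1*, the link protein that ties HA to proteoglycans, went the other way in the same DESeq2 fit, but with a split among the *Cd44*+/+ tumors. It had 160.8 and 160.5 CPM in No316 and No368, 0.0840 CPM (1 count) in No244, and 1.11, 0.330 and 0.366 CPM in *Cd44*-/- tumors. The genotypes overlapped, since No244 was lowest of all. *Hapln1* had a log2 fold change of -7.46 (SE 2.13, adjusted p = 0.452 by edgeR and 0.000819 by DESeq2). *Vcan*, its partner in HA matrix, was likewise high in No316 and No368 and low in No244, but high in No279 where *Hapln1* was not.

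*Acan*, the cartilage proteoglycan aggrecan, had 0.168, 1.36 and 0.882 CPM in *Cd44*+/+ and 10.1, 152.9 and 10.3 CPM in *Cd44*-/- tumors, without overlap. The log2 fold change was 6.11 (SE 1.48, adjusted p = 0.452 by edgeR). DESeq2 gave it no adjusted p by default and called it in the 8 other DESeq2 fits. Without No279 its log2 fold change was 3.62. The chondrocyte markers summed to 1160 to 1843 CPM in *Cd44*+/+ tumors and to 796.4, 34.76 and 24.34 CPM in *Cd44*-/- tumors. Most of that sum was the single gene *Col11a2* in No244, No316, No368 and No203 (1785, 1165, 1145 and 750.3 CPM). *Col11a2* had 2.905 CPM in No279 and 1.465 CPM in No364. The sum thus followed 1 gene, and by the fit 3 of the 5 markers tested were above 0 and 2 below. The chondrocyte factor *Sox9* was highest in No279 (17.7 CPM) and No364 (15.6 CPM). The cartilage collagen gene *Col2a1* of the same list was low in both of these tumors. It had 456, 3 and 7 counts in *Cd44*+/+ and 530, 19 and 0 counts in *Cd44*-/- tumors. The part of chondrocytes in the *Acan* values was not tested. *Stab1*, a scavenger receptor whose relative *Stab2* takes up HA, was lower in every *Cd44*-/- tumor, with 119.6, 226.4 and 219.6 against 83.0, 55.5 and 28.9 CPM (log2 fold change -1.76, SE 0.52, adjusted p = 0.452 by edgeR). *Stab2* itself overlapped, with 1.60, 0.104 and 0.126 CPM against 9.56, 0.759 and 17.1 CPM. *Habp4*, named for HA binding, was lower in every *Cd44*-/- tumor by a narrow margin, with 55.1 CPM in No244 and 55.0 CPM in No364.

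Genes of the inter-alpha-inhibitor family, only some of which encode the heavy chains that TSG-6 transfers, were high in the tumor with the hepatocyte markers. *Itih2* had 2044 CPM in No364 and 0.546 to 2.15 CPM in the other 5 tumors, and *Itih4* and *Ambp* had 1678 and 1677 CPM in No364. *Itih1* and *Itih3* had 438.2 and 1172 CPM there. Without No364 the log2 fold changes were -0.18 for *Itih1*, 1.26 for *Itih2*, -0.03 for *Itih3*, 0.25 for *Itih4* and 0.64 for *Ambp*. *Itih5*, whose highest tumor was also No364 (13.4 CPM), was higher in every *Cd44*-/- tumor, with 2.27, 1.11 and 1.30 against 4.84, 3.00 and 13.4 CPM (log2 fold change 2.18, SE 0.74, adjusted p = 0.452 by edgeR).

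**Figure D5:**
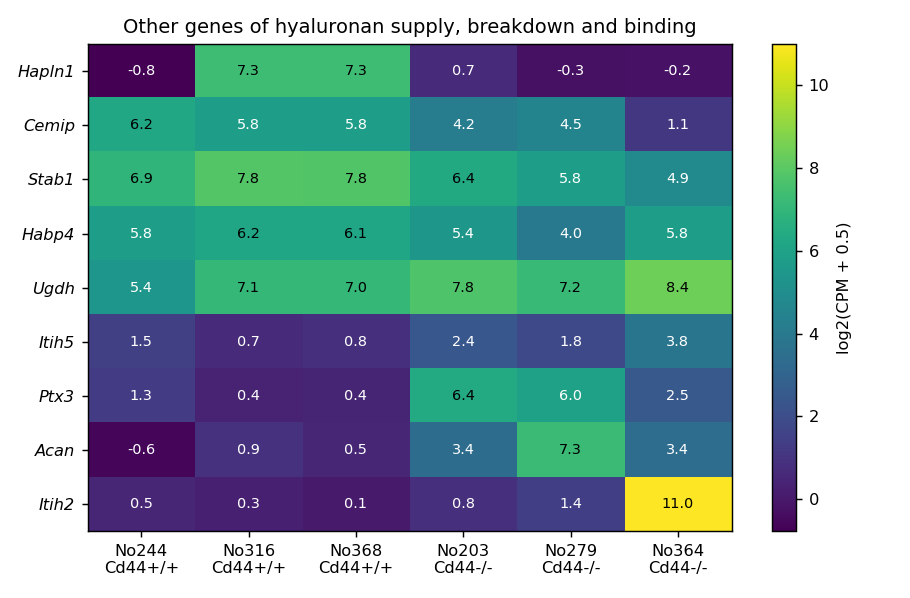
Level of the genes of HA supply, breakdown and binding whose genotypes do not overlap or that DESeq2 called (log2 of CPM + 0.5, printed in each cell) by tumor. *Ptx3* and *Acan* are higher and *Cemip* and *Stab1* lower in every *Cd44*-/- tumor, *Hapln1* is high in No316 and No368 alone, and *Itih2* is high in No364 alone.

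Proteases that shed CD44 and the subunits of γ-secretase, which releases CD44ICD, showed no call among 10 genes tested by edgeR or DESeq2 (0 at an unadjusted edgeR p under 0.05, 5 above 0 and 5 below by the fit, median log2 fold change 0.01). *Mmp9*, which can shed CD44, varied widely in level among tumors of each genotype, with 3870, 114.5 and 117.9 CPM in *Cd44*+/+ and 2095, 3628 and 249.6 CPM in *Cd44*-/- tumors. The fitted log2 fold change of 0.54 (SE 1.60, adjusted p = 0.911 by edgeR) was 4.09 without No244, where DESeq2 called the gene, and -0.21 without No279.

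Osteoblast markers, genes of the bone-forming cells, gave 0 edgeR calls among 9 (2 lower at an unadjusted p under 0.05) and a median log2 fold change of -1.23. DESeq2 called *Bglap* and *Bglap2*, neighbouring osteocalcin genes of near-identical sequence that can share reads. By default it gave no adjusted p to *Sp7*, *Alpl*, *Ibsp* and *Dmp1*. *Bglap* had 3481, 2042 and 1833 CPM in *Cd44*+/+ and 269.2, 4.79 and 6.80 CPM in *Cd44*-/- tumors. The osteoblast sum was 20490 to 29730 CPM in the *Cd44*+/+ tumors and 39300, 13530 and 3040 CPM in *Cd44*-/- tumors. *Has2* and *Tnfaip6* were highest in No279, one of the tumors with little *Sp7* and *Ibsp*, but not in No364, the other one, where they had 1.05 and 1.36 CPM. The chondrocyte list (5 of 8 tested, median log2 fold change 0.15) and the leukocyte list (4 of 6 tested, median -0.3) gave no call by edgeR or DESeq2, and neither did the muscle list (6 tested, median -4.79), the hepatocyte list (10 of 11 tested, median 9.41, and 0.45 without No364) or the lymphatic list (5 of 6 tested, median 0.58). At an unadjusted edgeR p under 0.05 these 5 lists had 10 genes, all of the hepatocyte list. Of the genes tested in these lists, DESeq2 by default gave no adjusted p to *Col2a1* or to any muscle or hepatocyte gene. It could therefore not call them. With its filter on Cook's distance off, DESeq2 called *Ckm* and every hepatocyte marker found. Without No244 the log2 fold changes of the muscle genes ran from -0.05 to 0.95. In the sinusoidal list (4 of 6 tested, median 2.42, 3 at an unadjusted edgeR p under 0.05 and 0 adjusted) DESeq2 called *Dnase1l3*, and in the macrophage list (9 tested, median 0.09, and -0.42 without No364, 1 and 0 by edgeR) it called *Timd4*, which had 5.60 CPM in No364 and at most 0.595 CPM elsewhere. By the edgeR fit 5 macrophage markers were above 0 and 4 below. Those below were *Adgre1* (-1.95), *Mrc1* (-1.29), *C1qa* (-1.55) and *C1qb* (-1.62), which DESeq2 called only without No244. *Adgre1* had 2.61, 55.6 and 56.2 CPM in *Cd44*+/+ and 3.57, 13.3 and 12.8 CPM in *Cd44*-/- tumors.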

How the data were processed

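RNA of 6 primary osteosarcomas was prepared by the authors with a stranded mRNA kit and sequenced from one end for 51 cycles. The submitters' processing notes name bcl2fastq 1.8.4, HISAT2 2.0.2 and featureCounts of Subread 2.0.0 with GRCm38. The authors deposited raw counts per Ensembl gene. How reads on the opposite strand or in several genes were counted is not stated. Symbols were found for 37693 of the 39179 IDs in GENCODE M21, from which coordinates and exon lengths came. Promoters were RefSeq sequences (GRCm38.p6).

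Genotype came from the sample titles. Pairs of libraries were checked against the 95% range of binomial sampling noise, over genes whose counts summed to 20 or more. For No316 and No368, 87.2% of 16671 genes lay within it, against 15.7% to 24.1% for the 14 other pairs, so they entered mean ± SD as 1 sample. The genotype comparison used edgeR 4.0.16 (R 4.3.3) on all 6 libraries (TMM, filterByExpr, quasi-likelihood F test, Benjamini-Hochberg over 16839 genes, threshold 0.05). Each SE of an edgeR log2 fold change is its absolute value divided by the square root of the F statistic. The code was tested on simulated data. The biological coefficient of variation was 0.708. Levels per length are TMM-scaled CPM per kilobase of the union of exons. Profiles used log2 CPM with a prior count of 2.

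Members and lists were chosen with earlier results of these data known. Genes named besides the 10 members are list genes called by any fit, non-overlapping genes and the 3 highest of the precursor, breakdown and binder lists, and the 3 nearest profiles of *Cd44*, *Has2*, *Hmmr*, *Lyve1* and *Vcan*. A few genes were named after their values were seen (*Ddx3y*, *Eif2s3y*, *Xist*, *Sox9*, *Col2a1*, *Col11a2*, *Runx2*, *Col1a1*, *Fcgr2b*, *Pdpn*, *Flt4*, *Ccl21a*, *Reln*, *Hapln3*, *Habp2*, *Susd5*). *Tf* and *Fcn3* of the marker lists were not matched. The values of 1 gene that this rule names are not reported here. Alternatives were other tests (DESeq2 1.42.0, and voom of limma 3.58.1), other scaling (DESeq2 size factors, or library size only), other filters (none, or 10 counts in every library), No316 summed with No368, mitochondrial genes removed, a covariate for hepatocyte markers, and every library left out once. DESeq2 with the filter on Cook's distance off, with the near-proportional pair summed and without each library, and edgeR without No244 and No364, were added after seeing the data.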

Additional observations from a re-analysis of the deposited data

How the results depend on the processing

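Of 237 refitted log2 fold changes of the members under 24 alternatives, 234 kept their direction. The 3 that turned were those of *Has1* without No279 (-1.09 by edgeR, in a range up to 1.59 over libraries left out, and -1.11 by DESeq2) and of *Tnfaip6* without No279 by DESeq2 (-0.01), where the tumor with the highest level was left out. Members called numbered 0 in every edgeR and limma-voom fit, 1 by DESeq2 with or without its Cook's distance filter, and 0 to 3 by DESeq2 with a library left out (3 without No244, 0 without No316 or No368). Over all genes, edgeR and limma-voom called 0, while 1810 had an unadjusted edgeR p under 0.05, a number that fell to 761 with No316 and No368 summed and ran from 763 (without No316) to 3085 (without No203) with a library left out. DESeq2 called 419 by default, 1195 without the Cook's distance filter and 146 with No316 and No368 summed, and the cause of the difference between tools was not tested. Genes whose genotypes did not overlap numbered 3209, 2104 with library size alone (63.5% of them higher, against 49.8%) and 9445 of 17197 without No244 and No364, where fewer libraries have to be apart. Requiring 10 counts in every library left no value for *Has1*, *Has2* or *Tnfaip6*. No paired analysis was possible because the mouse numbers are not shared between genotypes. The counts of *Has1*, *Has2*, *Tnfaip6* and *Lyve1* were low, which limits their precision. The biological coefficient of variation was 0.708.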
